A study of Mus musculus with 6 samples.

Results

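The comparison described here set resting CD8+ T cells of Nrdp1-/- mice against resting CD8+ T cells of wild-type mice (Nrdp1+/+), gene by gene. It consisted of 2 arrays, both labelled untreated, of the 6 arrays in the study, with 1 array per genotype. Of 18193 genes with a probe set assigned to a single symbol, 10251 were bright enough on these 2 arrays to be kept, and 6561 of those were classed as bright. Naive CD8+ T cells of C57/BL6 spleens were used, and the other 4 arrays held cells of the same 2 genotypes after 4 h or 8 h with anti-CD3 at 5 µg/ml and anti-CD28 at 1 µg/ml. The treatment field of the stimulated samples names anti-CD28 alone, while the protocol text names both antibodies. How the Nrdp1-/- allele was made, the age of the mice, how the cells were purified and how many animals gave each RNA are not given in the sources used here. The labels' extraction text speaks of RNA from the entire colon, against the titles, which name CD8+ T cells.

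Nrdp1, encoded by Rnf41, is an E3 ubiquitin ligase of the RING type. It attaches ubiquitin to proteins such as the receptor tyrosine kinase Erbb3 and adaptors and kinases of innate immunity, and the deubiquitinase Usp8 stabilises it. In CD8+ T cells its described target is Zap70, the kinase that relays the signal of the T cell receptor. The phosphatases Ubash3a and Ubash3b are counted here as its partners and not as targets. A resting naive CD8+ T cell is kept quiescent by transcription factors such as Klf2, Foxo1 and Lef1 and by survival signals through the interleukin-7 receptor, and it holds few transcripts of effector cytokines and granzymes. Memory-like CD8+ T cells carry more of them without stimulation. A cell preparation from spleen can also hold B cells, plasma cells, macrophages, granulocytes and natural killer cells, so markers of those cells were read on the same arrays.

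Each value was a MAS5 signal, the brightness of a probe set on a linear scale. Differences are given as log2(signal + 4.45) of the Nrdp1-/- array minus that of the wild-type array, so that 1 is about a doubling and a dim gene's change is understated. With 1 array per genotype the resting difference has no replicate check and carries no p-value. The spread that could be measured was technical: among 4916 genes with 2 or more kept probe sets, the resting differences of a gene's probe sets scattered with an SD of 0.31 per probe set, and with 0.20 among the 2253 genes with 2 or more bright ones. Over all kept genes 87.1% of differences lay within 0.5 of 0, and 95.4% of those of bright genes. Both untreated arrays had a median signal of 65.0, and over the 6 arrays the 3' to 5' ratio of control probes lay between 0.815 and 0.894 for Gapdh and between 1.39 and 1.53 for beta-actin. The arrays' number and, for dim genes, signal over background limit the precision.

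A difference of at least 2-fold was used to count genes. Of the 10251 kept genes, 177 (1.73%) were at least 2-fold higher and 155 (1.51%) at least 2-fold lower in resting Nrdp1-/- cells. Among bright genes, whose mean of the 2 log2 values was at or above that of a signal of 483, 27 were higher and 27 lower (0.412% each). Of the 10251 kept genes 462 lay below the array median on 1 of the 2 arrays, and 66 of the 177 higher and 67 of the 155 lower genes were among them. A gene kept only through its brighter array had to differ, so those folds are given as lower bounds against the array median of 65.0, written as "at least". With these genes at their bounds 147 were higher and 118 lower. The median of all kept differences was -0.02. Where a gene counted as higher had other kept probe sets, which was the case for 44 of the 177, the brightest of these also reached 2-fold the same way in 22. For the lower genes this was so in 21 of 30. With the mean over all probe sets of a gene in place of the brightest, 129 of the 177 and 117 of the 155 stayed past 2-fold.

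**Figure D1:**
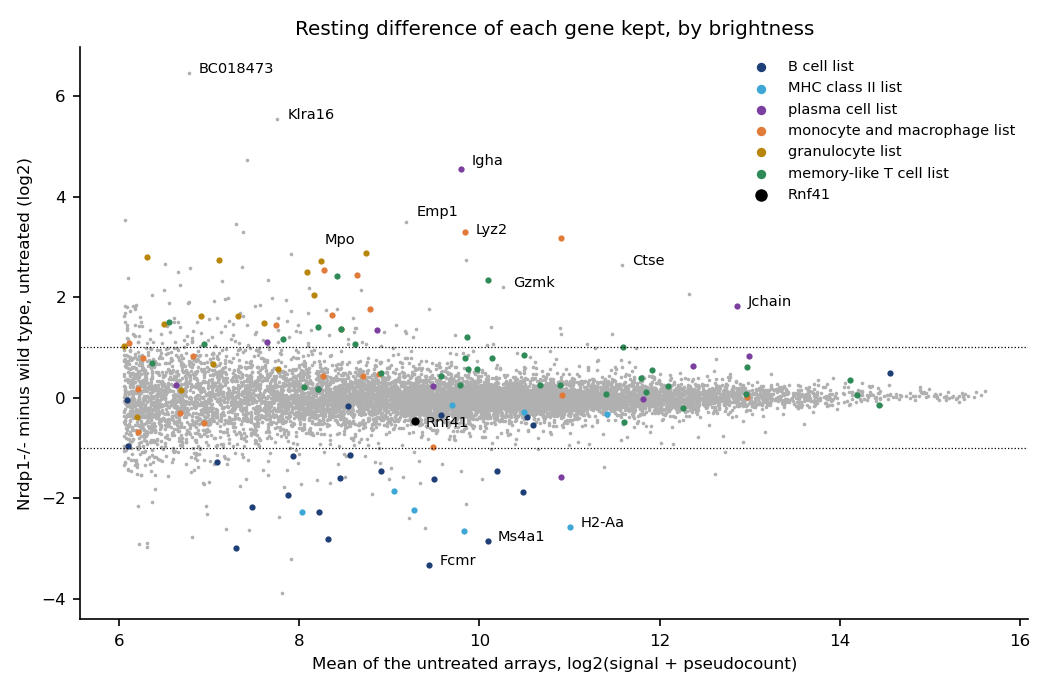
Resting difference (Nrdp1-/- minus wild type, log2) of each of the 10251 kept genes against its mean on the untreated arrays, with 1 array per genotype and no error bars. The grey cloud is centred at -0.02 and widens toward dim genes on the left. Of the kept genes, 15 of 22 B cell and 5 of 8 MHC class II genes lie below the lower dotted 2-fold line, and Igha, Emp1 and Lyz2 lie above the upper one.

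Rnf41, the targeted gene, has 4 probe sets. Its brightest gave 728 on the wild-type and 528 on the Nrdp1-/- untreated array, a difference of -0.46. The dimmer ones gave 224 and 201 (-0.15), 181 and 54.5 (-1.66), and 56.0 and 51.7 (-0.11) in the same order. All of them were lower in the library labelled Nrdp1-/-, but 1 differed by more than 2-fold. Which of them reads the deleted stretch is unknown, so a probe set that is near level says nothing for or against the labels.

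The kept partners of Nrdp1 differed by less than 2-fold at the transcript, read from the brightest probe set of each. Zap70 gave 1366 on the wild-type and 1350.2 on the Nrdp1-/- untreated array, a difference of -0.02, while its other kept probe sets gave 0.58 and 0.74, so its probe sets disagreed. Ubash3a (-0.47) and Ubash3b (-0.37), which remove activating phosphates or dampen receptor signalling, were lower by less than 2-fold, and the deubiquitinase gene Usp8 differed by 0.32. The other kept probe sets of Ubash3b gave -0.13 and, at 605 and 316 untreated, -0.93, and that of Ubash3a gave -0.07. Of the 12 kept genes of Nrdp1, its partners and described substrates, 0 reached 2-fold in either direction, with a median of 0.14. Among all kept genes 1.73% were at least 2-fold higher and 1.51% lower, so a count of 0 in 12 is near that share. The transcription factor gene Cebpb, a described substrate, had the largest difference of the list at 0.73.

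The identity of the cells was read from markers. Cd8a gave 11335 on the wild-type and 10032.5 on the Nrdp1-/- untreated array and Cd8b1 gave 17383 and 16358, differences of -0.18 and -0.09. Cd4 was below the array median on both, at 6.1 and 9.0. Of 20 colon markers 5 were kept and 13 lay below the median on both untreated arrays. Muc2, Cdx1, Vil1 and Fabp2, which mark colon and gut epithelium, were among the latter, with no signal above 53.5. Epcam, which is also made by some lymphoid cells, gave 529 and 241 and was the only colon marker kept and past 2-fold (-1.12). The summed signal of the 20 colon markers was 1493 and 1261, against 114185 and 115898 for 16 T cell identity genes.

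B cell transcripts were the largest group of lower genes among the lists. Of 26 B cell markers with a probe set 22 were kept, of which 15 were at least 2-fold lower and 0 higher in resting Nrdp1-/- cells, with a median of -1.46 against -0.02 for all kept genes. Ms4a1, which encodes CD20, gave signals of 2930.4, 2345.5 and 2914 on the wild-type arrays (untreated, 4 h, 8 h) and 403, 262 and 255 on the Nrdp1-/- arrays. The 3 Nrdp1-/- arrays all lay far below the 3 wild-type arrays, and the resting difference was -2.85, or 7.2-fold lower. Fcmr, the receptor for the constant part of IgM, gave 2206, 2106 and 1342 against 214, 284 and 90.3 in the same order, a resting difference of -3.34. At each time its Nrdp1-/- value was the lower one. Differences were negative at all 3 times for 20.4% of all kept genes, and the 3 times are not replicates. The B cell receptor component Cd79b (2727 and 742.5 untreated, -1.87), the Ets factor Spib (841 and 117, -2.80), the kinase Blk (648 and 131, -2.27) and Ly6d (1266 and 408, -1.62) went the same way. Siglecg, an inhibitory lectin of B cells, gave 439 and 51.2, below the array median in Nrdp1-/- cells, and was at least 6.76-fold lower.

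Not all B cell markers were low. Ighm, the heavy chain of IgM, was bright on both arrays (20352 and 28775) and higher by 0.50, and all 7 of its kept probe sets had the same sign. The next brightest gave 0.64, the dimmer kept ones gave between 1.21 and 2.88, and the mean of its probe sets gave 0.98. Cd72 (-0.35), Ralgps2 (-0.39), Pou2af1 (-0.54) and Tnfrsf13c (-0.16) lay within 2-fold, and the master regulator Pax5 was dim on both arrays (65.1 and 62.6). These markers beyond the rule for named genes, like other list members given beside their counts, were picked after their values were seen. The summed signal of the 26 markers, Ighm included, was 41804 and 36537. In bulk RNA, fewer cells of a type and less RNA per cell cannot be told apart.

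The genes of MHC class II, which present peptides on B cells, dendritic cells and macrophages, were lower together with the B cell genes. Of 8 kept members 5 were at least 2-fold lower and 0 higher, with a median of -2.05. H2-Aa, the alpha chain of I-A, gave signals of 5012.5, 4777 and 4662 on the wild-type arrays (untreated, 4 h, 8 h) and 840.1, 879 and 917 on the Nrdp1-/- arrays. The highest Nrdp1-/- value lay below the lowest wild-type value, and the resting difference of -2.57 was of the same sign on all 3 kept probe sets. H2-Eb1 gave 2278 and 358 untreated (-2.66), H2-Ab1 1342 and 281 (-2.24), the peptide-loading gene H2-DMb2 573 and 115 (-2.28) and the invariant chain Cd74 1007 and 275.5 (-1.85). The remaining members behaved otherwise: H2-Oa gave 865 and 785 (-0.14), H2-Ob 3066 and 2437 (-0.33) and H2-DMa 1588 and 1298 (-0.29). The class II transactivator Ciita was below the array median on both arrays. H2-Oa and H2-Ob encode the chains of H2-O, which restrains peptide loading.

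The start regions of 4 class II genes are shown because 2 of these genes differed by over 5-fold and 2 by less than 2-fold in the same region of chromosome 17. Class II promoters share a set of elements read by the RFX and NF-Y factors and by Ciita, the last of them a Y box. The lines give the 120 bases before the annotated transcription start, 5′ to 3′ on the strand of the gene, from RefSeq on build GRCm38.p6. Capitals mark the letters CTGATTGG, a form of the Y box, which were searched on both strands (CCAATCAG on the other):
H2-Aa: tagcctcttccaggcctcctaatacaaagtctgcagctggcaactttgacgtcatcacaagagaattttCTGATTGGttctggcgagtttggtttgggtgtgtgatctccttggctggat
H2-Eb1: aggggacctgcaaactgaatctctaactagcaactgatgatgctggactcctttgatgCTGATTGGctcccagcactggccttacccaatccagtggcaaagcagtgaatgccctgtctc
H2-Oa: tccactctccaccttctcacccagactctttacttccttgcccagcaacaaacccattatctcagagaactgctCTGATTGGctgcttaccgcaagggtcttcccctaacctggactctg
H2-Ob: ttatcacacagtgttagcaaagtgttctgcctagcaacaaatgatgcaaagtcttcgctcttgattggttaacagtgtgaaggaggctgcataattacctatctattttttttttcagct
The windows lie at chr17:34287824-34287943 (minus strand), chr17:34305747-34305866, chr17:34092259-34092378 and chr17:34238785-34238904 (plus strand). The letters were present once in the windows of H2-Aa, H2-Eb1 and H2-Oa and absent from that of H2-Ob, while 2.84% of 32851 promoter windows of this length held them. The H2-Ob window holds a stretch that differs from them in the first letter only, so their absence does not show that it lacks a Y box. Thus H2-Oa, with a resting difference of -0.14, held the same letters as H2-Aa and H2-Eb1. A match is a description of the sequence and not a binding site.

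Several immunoglobulin transcripts of antibody-secreting cells went the other way from the B cell genes. Igha, the heavy chain of IgA, had the largest difference of all bright genes. Its signals were 179, 310.2 and 279.7 on the wild-type arrays (untreated, 4 h, 8 h) and 4304, 3505.5 and 1803 on the Nrdp1-/- arrays. All Nrdp1-/- values were above all wild-type values, the resting difference was 4.56 (23.5-fold higher), and its other kept probe sets gave 3.65 and 3.69. Jchain, which joins IgA and IgM into polymers, gave 3948, 3767.5 and 2738.5 against 14015, 10429 and 9001 in the same order of arrays (1.83 untreated). The kappa variable segments Igkv9-120 (354 and 2377, 2.73) and Igkv8-30 (2484 and 10453, 2.07) were higher as well, as was Ighg3 (287 and 739.7, 1.35). Not every segment was higher: the heavy chain variable segment Ighv14-2 gave 493 and 91.9 and was lower untreated (-2.37), at 4 h (-1.74) and at 8 h (-1.89). Probe sets of immunoglobulin segments can bind related segments, so single segments are uncertain. Of 11 kept plasma cell markers 4 were at least 2-fold higher, these being Igha, Jchain, Ighg3 and the surface proteoglycan Sdc1 (132 and 288.5, 1.10), and 1 was lower. With the mean of probe sets Ighg3 (0.48) and Sdc1 (0.95) were under 2-fold. The lower gene was Mzb1, a chaperone of immunoglobulin made by B cells and plasma cells, at 3288 and 1105 (-1.57). The regulators Xbp1 (0.64) and Prdm1 (0.18) differed by less than 2-fold, and Tnfrsf17, the receptor BCMA of plasma cells, was dim on both arrays.

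**Figure D2:**
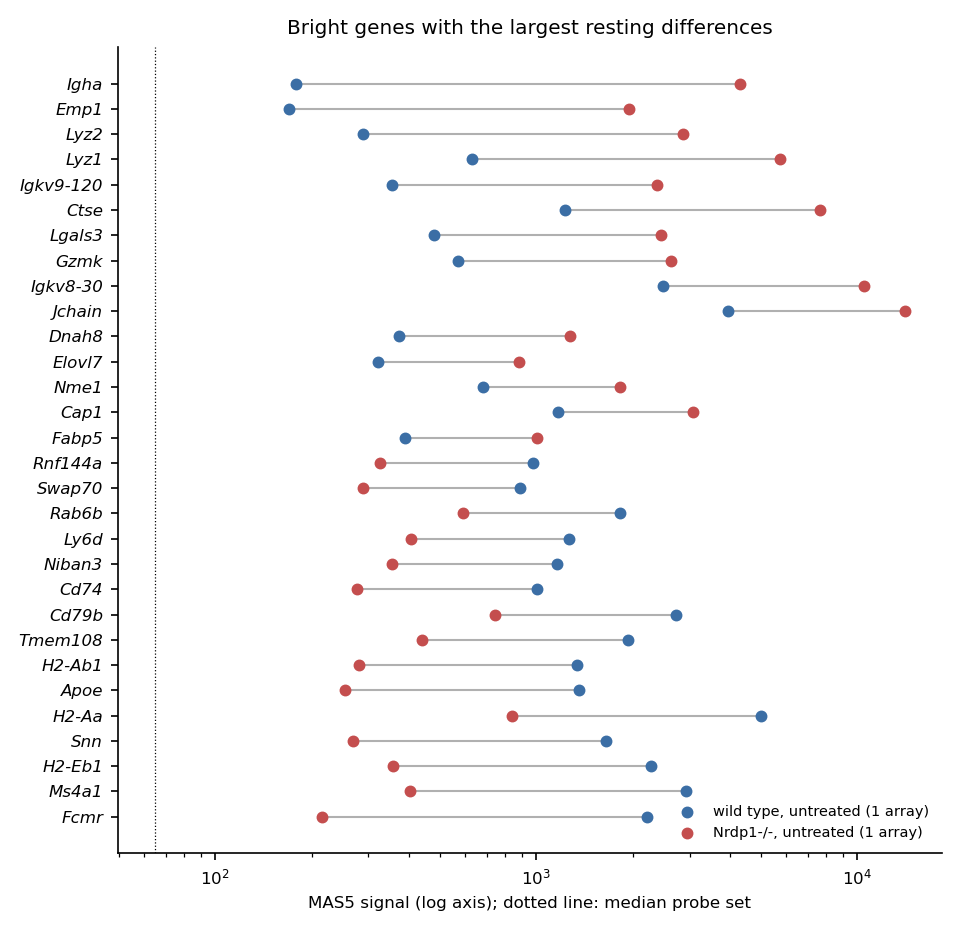
MAS5 signal on the untreated wild-type (blue) and Nrdp1-/- (red) array, on a log axis, of the 15 higher and 15 lower bright genes with the largest resting differences. Each point is 1 array, so there are no error bars. Igha spans 179 to 4304 at the top and Fcmr 2206 to 214 at the bottom, and all points lie above the array median of 65.0.

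Transcripts of myeloid cells were higher in the resting Nrdp1-/- sample. The lysozyme gene Lyz2 gave signals of 288, 352.5 and 452 on the wild-type arrays (untreated, 4 h, 8 h) and 2865, 2063 and 748 on the Nrdp1-/- arrays. The Nrdp1-/- values were closest to the wild-type ones at 8 h but above them at every time, and the resting difference was 3.29 (9.8-fold). Lyz1, a near-identical copy whose probe sets may share signal with it, gave 631.5 and 5725 untreated (3.17). The receptor of macrophage colony-stimulating factor, Csf1r, gave 167, 200.0 and 131 against 923, 605 and 177 (2.44 untreated), and the glycoprotein Gpnmb of macrophages 124 and 746 (2.55). The signalling adaptors Tyrobp (236 and 808, 1.75) and Fcer1g (181 and 579.7, 1.65), shared by myeloid and natural killer cells, were higher too. Of 37 monocyte and macrophage markers with a probe set 21 were kept, 9 of them at least 2-fold higher and 0 lower, with a median of 0.80, or 0.57 with dim genes at their bounds, where 8 reached 2-fold. Cybb, a subunit of the phagocyte oxidase, was lower at -0.98. The list's summed signal was 14779 and 25581. Defining genes of tissue macrophages and dendritic cells were not bright in either sample: C1qa, C1qb, C1qc, Mrc1, Cd163, Marco, Siglech, Xcr1 and Batf3 were all below the array median on both untreated arrays.

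Granule genes showed the highest list median. Of 25 granulocyte, mast cell and basophil markers 15 were kept, and 11 of these were at least 2-fold higher and 0 lower, with a median of 1.63 (the same with dim genes at their bounds, where 10 reached 2-fold). Myeloperoxidase, Mpo, gave signals of 153, 89.5 and 61.0 on the wild-type arrays (untreated, 4 h, 8 h) and 1157, 364 and 107 on the Nrdp1-/- arrays. The untreated Nrdp1-/- array was by far the highest, and the difference was 2.88 untreated and 1.97 at 4 h. The serine proteases Prtn3 (113 and 771, 2.72) and Ctsg (109.6 and 641, 2.50) and the eosinophil granule protein Prg2 (137 and 580.5, 2.05) followed. The calcium-binding proteins S100a8 (49.2 and 351) and S100a9 (25.7 and 206) were dim on the wild-type array and at least 5.4-fold and 3.17-fold higher. Basophil and mast cell genes Mcpt8 (86.6 and 276), Cpa3 (113 and 323) and Ms4a2 (50.0 and 146) were higher, by 1.63, 1.48 and at least 2.25-fold. Neutrophil markers were mixed. S100a8 and S100a9, which mature neutrophils make, were higher as given above. Ltf, Lcn2, Ngp, Camp, Mmp9 and Cxcr2 were all below the array median on both arrays, and Csf3r differed by 0.14. The summed signal of the 25 markers was 1573 and 5599, small beside that of the T cell identity genes.

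Other cells were less uniform. Of 7 kept natural killer markers 3 were at least 2-fold higher, namely Tyrobp, Fcer1g and Gzma, which other cells share, and 1, the Ly49 receptor gene Klra7 (294 and 83.6, -1.76), was lower. Ncr1, which defines natural killer cells, was dim on both arrays at 27.1 and 5.0. Of 7 kept erythroid and platelet markers 2 were at least 2-fold higher, Car1 (at least 2.52-fold) and the platelet chemokine Pf4 (at least 2.23-fold), while Hba-a1 and Alas2 were dim on both arrays. Among 8 kept markers of CD4, regulatory and gamma-delta T cells 1 was at least 2-fold higher, the transcription factor Maf (96.7 and 222, 1.16, but 0.05 with the mean of its probe sets), and the scavenger receptor gene Cd163l1 of gamma-delta T cells was the lowest at -0.64.

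Transcripts typical of memory-like and effector CD8+ T cells stood higher in the unstimulated Nrdp1-/- sample. Of 35 kept memory-like genes 32 differences were positive, against 47% of all kept genes, 10 were at least 2-fold higher and 0 were lower, with a median of 0.55. Klrg1, a receptor of terminally differentiated effector cells, gave signals of 177, 104 and 134 on the wild-type arrays (untreated, 4 h, 8 h) and 474, 671 and 428 on the Nrdp1-/- arrays. At each time the Nrdp1-/- value was the higher one, as for 17.1% of all kept genes, and the resting difference was 1.40. Anxa1 (144 and 785, 2.41) and Lgals3 (479 and 2445, 2.34), an annexin and a galectin that macrophages make too, led the list. With the mean of all probe sets Anxa1 gave 0.94, Ccr2 0.35 and Id2 0.77, so that 7 of the 10 stayed past 2-fold. The chemokine receptors Cx3cr1 (at least 2.37-fold) and Ccr2 (215 and 560.5, 1.36) were higher, but 1 of the 3 kept probe sets of Ccr2 had this sign. S100a4 (1.21), Bhlhe40 (1.17), Sytl2 (1.08), Klrk1 (1.06), which encodes the NKG2D receptor, and the transcriptional regulator Id2 (2158 and 4372, 1.02) made up the rest of the 10. The transcription factors Eomes (851 and 1478, 0.79) and Tbx21 (399.7 and 564, 0.49) differed by less than 2-fold. Cd44 (0.26), Il2rb (0.26) and Cxcr3 (0.39), which are used to tell memory-like from naive CD8+ T cells, were higher by still less, and the integrin Itgae (-0.21) and Cxcr6 (-0.48) were lower. Myeloid markers moved with this group, as given above, and their part in its difference was not tested.

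Among cytotoxic genes a pair of granzymes was higher. Gzmk, a granzyme of effector memory cells, gave signals of 569, 378 and 345 on the wild-type arrays (untreated, 4 h, 8 h) and 2634, 1875 and 1757 on the Nrdp1-/- arrays. Every Nrdp1-/- value was above every wild-type value, and the resting difference of 2.20 (4.6-fold) was close to those at 4 h and 8 h (2.30 and 2.34). Gzma gave 370.5 and 907 untreated (1.28), Gzmb 112 and 223 (0.96) and Prf1, which encodes perforin, 369.9 and 549 (0.56). Gzmk and Gzma were the 2 of 12 kept cytotoxic genes that reached 2-fold, 0 were lower, and the list's median was 0.27. The bright granule genes Srgn (-0.02), Lamp1 (0.08) and Ctsd (0.03) were nearly level.

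Many effector cytokine transcripts were dim in resting cells of both genotypes: 11 of 23 cytokine genes lay below the array median on both untreated arrays. Of the 11 kept genes 3 were at least 2-fold higher, or 2 with dim genes at their bounds, and 0 lower, with a median of 0.37. The chemokine Ccl3 gave signals of 52.4, 6031 and 2476 on the wild-type arrays (untreated, 4 h, 8 h) and 207, 8351 and 5482 on the Nrdp1-/- arrays. It was below the median on the untreated wild-type array, and the Nrdp1-/- value was at least 3.19-fold higher. Ccl4 gave 252.5 and 536 untreated (1.07), and Tnf 37.7 and 105, at least 1.61-fold higher. Ifng, which encodes interferon gamma, was too dim to be kept, at 27.1 and 80.4, and at least 1.24-fold higher. Il2 (18.0 and 28.0), Csf2 (1.5 and 18.4) and Il17a (5.6 and 29.0) were below the array median in both samples, so no fold is given. Ltb, which naive T cells make constitutively, differed by 0.08.

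Immediate early genes, which the T cell receptor switches on within the first hour, were higher in part. Of 34 kept genes 5 were at least 2-fold higher and 0 lower, with a median of 0.20. Fos, a subunit of the AP-1 factor, gave signals of 128, 906 and 557 on the wild-type arrays (untreated, 4 h, 8 h) and 433, 1875 and 1225 on the Nrdp1-/- arrays. Each Nrdp1-/- array was above the wild-type array of its time, and the resting difference was 1.73. The resting Nrdp1-/- value stayed below both stimulated wild-type values. The orphan nuclear receptor Nr4a1, a reporter of receptor signalling, gave 205.5 and 491 untreated (1.24), Nr4a2 69.8 and 166 (1.20), Nr4a3 151 and 356 (1.22) and the zinc finger factor Egr2 144 and 315 (1.11). Nr4a3 took the opposite sign, -0.64, when its 3 probe sets were averaged, since its dim probe sets gave -2.77 and -0.37. Nr4a2 then gave 0.50, so 3 of the 5 stayed past 2-fold. Jun (0.98), Klf10 (0.95), Egr1 (0.60) and Egr3 (0.50) were higher by less than 2-fold. Bright members were level, among them Ier2 (0.09), Nfkbia (0.10), Tnfaip3 (-0.05), Zfp36l2 (0.00), Dusp1 (0.14) and Myc (0.10). Myeloid transcripts were higher on the same array, and their part in this was not tested.

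The start regions of Fos and the Nr4a genes are shown because these members differed together in resting cells. They are known targets of CREB and related factors, whose sites contain the letters TGACG. The lines give the 250 bases before the annotated start, 5′ to 3′ on the strand of the gene, from RefSeq on GRCm38.p6, and capitals mark TGACG or its reverse complement CGTCA:
Nr4a1: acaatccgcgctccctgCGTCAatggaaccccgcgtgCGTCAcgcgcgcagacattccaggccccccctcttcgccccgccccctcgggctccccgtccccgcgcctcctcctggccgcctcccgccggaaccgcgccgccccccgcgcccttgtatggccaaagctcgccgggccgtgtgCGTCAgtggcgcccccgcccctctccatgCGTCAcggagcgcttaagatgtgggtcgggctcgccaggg
Nr4a2: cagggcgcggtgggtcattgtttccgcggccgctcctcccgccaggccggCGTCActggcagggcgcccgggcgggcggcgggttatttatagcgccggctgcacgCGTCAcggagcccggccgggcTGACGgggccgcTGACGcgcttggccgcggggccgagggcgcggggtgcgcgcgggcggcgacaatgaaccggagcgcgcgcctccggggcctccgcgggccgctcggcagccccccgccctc
Nr4a3: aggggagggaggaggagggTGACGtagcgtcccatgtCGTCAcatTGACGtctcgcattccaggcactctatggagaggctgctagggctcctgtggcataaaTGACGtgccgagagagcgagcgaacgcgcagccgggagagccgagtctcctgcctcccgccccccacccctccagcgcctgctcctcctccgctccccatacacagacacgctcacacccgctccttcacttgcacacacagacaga
Fos: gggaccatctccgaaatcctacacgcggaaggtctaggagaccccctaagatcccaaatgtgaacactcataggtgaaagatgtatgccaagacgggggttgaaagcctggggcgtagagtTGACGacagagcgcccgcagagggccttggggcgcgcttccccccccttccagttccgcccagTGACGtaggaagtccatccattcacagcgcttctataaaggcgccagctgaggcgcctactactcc
The windows lie at chr15:101266596-101266845, chr4:48045055-48045304 and chr12:85473640-85473889 on the plus strand and at chr2:57124004-57124253 on the minus strand. The letters occurred 4 times in each of the Nr4a windows and 2 times in that of Fos, and 17.8% of 32851 windows of this length held them at least once. No binding was measured here.

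Genes that define a resting naive CD8+ T cell had a median difference of 0.00, against -0.02 for all kept genes. Of 26 kept members 0 reached 2-fold in either direction, which is near the background of 1.73% higher and 1.51% lower, and the medians at 4 h and 8 h were -0.13 and -0.22. The interleukin-7 receptor gene Il7r gave 28318 on the wild-type and 29110.1 on the Nrdp1-/- untreated array (0.04), the quiescence factor Klf2 14707 and 14706, the homing receptor gene Ccr7 6404 and 6583 (0.04) and Lef1 14182 and 12779 (-0.15). The gut-homing chemokine receptor gene Ccr9 had the largest difference of the list. It gave 6269, 5774.5 and 3786 on the wild-type arrays (untreated, 4 h, 8 h) and 3294, 2588 and 1792 on the Nrdp1-/- arrays. The wild-type values were higher at every time, and the resting difference was -0.93. Its next bright probe sets gave -1.17 and -1.08, past 2-fold, and the dim ones -0.11 and 0.19. S1pr1, which guides exit from lymphoid organs, differed by -0.45. Of 16 kept T cell identity genes 0 reached 2-fold (median 0.14), and of 32 kept T cell receptor signalling genes 1 did, the adaptor Dok2 (780.4 and 1633, 1.06), with a median of 0.03. In the latter list Lat (-0.10), Plcg1 (0.05), Fyn (0.06), Ptprc (0.12) and the ligase Cblb (-0.07) lay close to 0.

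**Figure D3:**
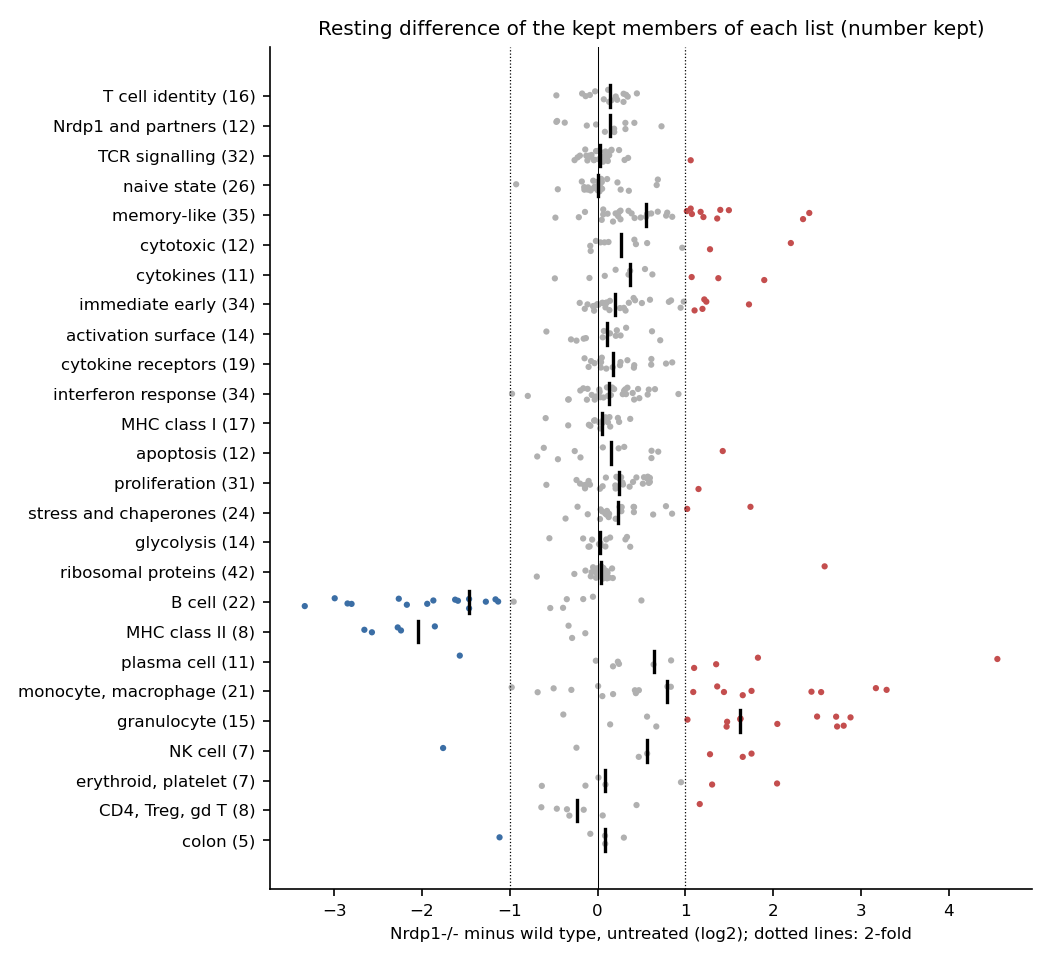
Resting difference (log2) of each kept member of 26 gene lists, with the number kept beside the name. Points are genes, red where at least 2-fold higher and blue where at least 2-fold lower in Nrdp1-/- cells, and black bars are list medians. B cell and MHC class II medians lie at -1.46 and -2.05, granulocyte, macrophage, plasma cell and memory-like medians between 0.55 and 1.63, and the naive-state median at 0.00.

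The remaining lists held few genes past 2-fold. Among all kept genes 1.73% were at least 2-fold higher and 1.51% lower. Lists with 1 or 2 higher genes lay above that share on small counts, and the difference was not tested. Of 34 kept interferon response genes 0 reached 2-fold (median 0.13), with Ifit3 at 0.92 and Rsad2 at -0.97. Of 14 kept surface molecules of activation 0 did (0.11), with the early marker Cd69 at 637 and 1048 (0.71). Of 19 kept cytokine receptors 0 did (0.17), with Il18rap at 0.85 and Il10ra at 0.78. Of 17 MHC class I genes (0.06) and of 14 glycolysis genes (0.03) 0 reached 2-fold. Of 31 kept proliferation genes 1 did, the mitotic kinase Bub1 (80.8 and 185, 1.15), with a median of 0.24 and Mki67 at 0.60. Among 12 apoptosis genes the BH3-only gene Bik (83.7 and 232, 1.43, but 0.73 with the mean of its probe sets) was the 1 past 2-fold, and Bcl2 was higher by 0.61 with all 5 kept probe sets of the same sign. In the stress and chaperone list 2 of 24 were at least 2-fold higher, the ATF4 targets Asns (168, 634 and 876.5 on the wild-type arrays (untreated, 4 h, 8 h) and 571.5, 1738 and 2545 on the Nrdp1-/- arrays, 1.74 untreated) and Chac1 (1.02). Asns was higher in Nrdp1-/- cells at each time, and Hspa1b, a sign of heat shock, differed by 0.85. Of 42 kept ribosomal protein genes 1 was at least 2-fold higher, with a median of 0.04. That gene, Rpl39, was read by a probe set far dimmer than those of the others (40.6 and 266, at least 4.09-fold higher) and had the opposite sign at 4 h, where the Nrdp1-/- array was below its median, and at 8 h (-0.52).

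Many of the 2-fold genes lay in no list: 124 of the 177 higher and 132 of the 155 lower ones. Among bright genes Emp1, a membrane protein, gave 169.9, 91.7 and 172 on the wild-type arrays (untreated, 4 h, 8 h) and 1949, 1094 and 1059.9 on the Nrdp1-/- arrays. Every Nrdp1-/- value was several times every wild-type value, and the resting difference was 3.49 (11.2-fold). Ctse, the aspartic protease cathepsin E, gave 1228, 909 and 1039 against 7646, 7129.7 and 6019.6 in the same order (2.63 untreated), though its dimmer kept probe set gave -0.59. The dynein chain Dnah8 (1.76), the fatty acid elongase Elovl7 (1.45, with 6 of 6 kept probe sets of this sign), the nucleoside diphosphate kinase Nme1 (1.41), the actin regulator Cap1 (1.39) and the fatty acid carrier Fabp5 (1.36) completed the 15 higher bright genes. The other bright probe set of Nme1 gave 1263 and 1460.3 (0.21), and with the mean of probe sets Nme1 (0.81) and Elovl7 (0.92) were under 2-fold. On the lower side stood Snn (1652 and 269, -2.60), the lipid carrier Apoe (1359.7 and 254, -2.40), Tmem108 (1926 and 439, -2.12), Niban3 (-1.70), the Rab GTPase Rab6b (-1.62, with all 4 kept probe sets of this sign), Swap70 (-1.62), which takes part in B cell switching and migration, and the ligase Rnf144a (-1.57).

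Several genes were dim in 1 genotype at all 3 times, with signals of at most 113, and these were chosen after their values were seen. BC018473 gave 7.2, 47.7 and 40.5 on the wild-type arrays (untreated, 4 h, 8 h) and 1022, 1820.2 and 1521 on the Nrdp1-/- arrays. It was above the array median in Nrdp1-/- cells alone and at least 15.7-fold higher at rest. Klra16, a Ly49 family receptor whose copies are closely related in sequence, gave 27.1, 36.1 and 31.0 against 1475.5, 1407 and 1160.4 (at least 22.7-fold). The guanylate-binding protein gene Gbp2b gave 28.9, 4.2 and 16.1 against 884.5, 9598 and 8446 (at least 13.6-fold at rest). The wild-type arrays were dim for Gbp2b at every time, and the stimulated Nrdp1-/- arrays were the brightest. Tnfrsf14, the receptor HVEM, gave 43.4, 50.4 and 113 against 516.5, 757 and 517 (at least 7.95-fold), and Nxpe4 48.6, 31.2 and 14.9 against 515.5, 342 and 155 (at least 7.93-fold). In the other direction Adm, the peptide hormone adrenomedullin, gave 858, 759 and 501.5 against 53.8, 37.8 and 72.1 and was at least 13.2-fold lower in Nrdp1-/- cells, and Sspn, sarcospan, gave 728, 528 and 486 against 74.7, 61.1 and 40.1 (-3.21).

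The genes next to Rnf41 were examined as a check of the region around the targeted locus. Among the 60 protein-coding genes nearest to Rnf41 in gene order, 30 on either side, 51 had a probe set and 35 were kept. Of these 1 was at least 2-fold higher, Cnpy2 (1832 and 4389, 1.26, but 0.79 with the mean of its probe sets), 0 were lower, and the median was 0.06. The kept genes of a run of 7 directly beside Rnf41, picked after the values were seen, all had positive differences: Pan2 (0.94), Cnpy2 (1.26), the citrate synthase gene Cs (0.76), Coq10a (0.57), Ankrd52 (0.61) and Nabp2 (0.51). These 6 were positive at all 3 times, as were 17.1% of all kept genes, whereas 20.4% were negative at all 3. Of the other 29 kept neighbours 0 were positive and 6 negative at all 3 times. Stat2, at the ninth place on the same side, gave -0.80 at rest and 0.85 and 0.39 at 4 h and 8 h. Past 2-fold but below the array median on both arrays, and so without a fold, were Rdh16f2, Sdr9c7, Hsd17b6, Il23a, Slc39a5 and Pym1.

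**Figure D4:**
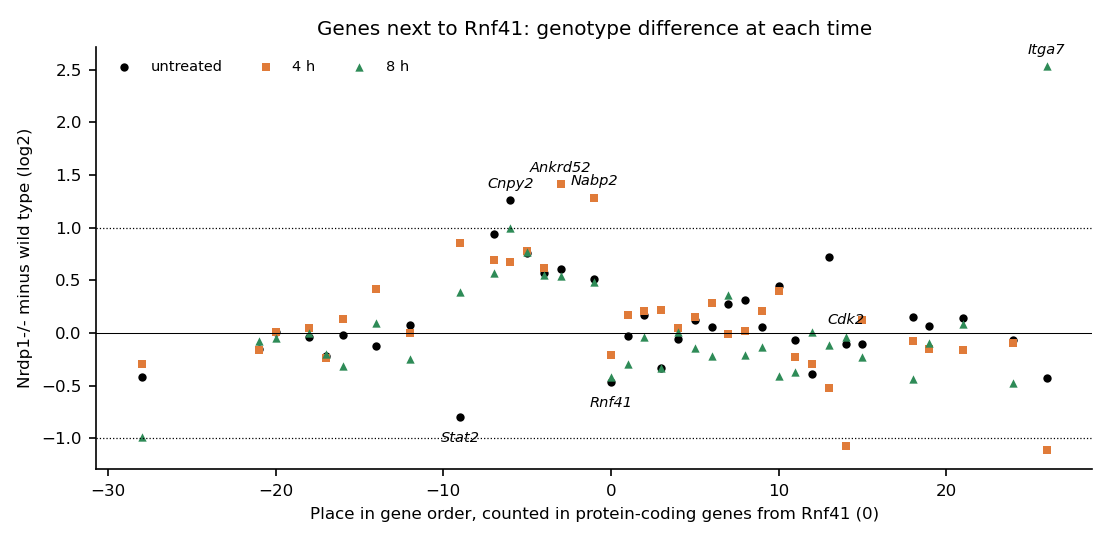
Genotype difference (Nrdp1-/- minus wild type, log2) of Rnf41 and its 35 kept neighbours, by place in gene order from Rnf41 at 0, for the untreated arrays (black circles), 4 h (orange squares) and 8 h (green triangles), 1 array per genotype and time. From Pan2 to Nabp2, left of Rnf41, all values lie between 0.49 and 1.41, while Rnf41 itself lies between -0.46 and -0.21.

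The 4 stimulated arrays, which the resting comparison does not use, allowed a test. A model with genotype and time (limma, 1 residual degree of freedom) called 253 genes (2.47%) higher and 273 (2.66%) lower in stimulated Nrdp1-/- cells at an adjusted p of 0.05. Nothing in the labels says that the arrays come from separate animals, and no genotype and time has a replicate array. The residual of a gene is the change of its genotype difference from 4 h to 8 h, so the times stand in for replicates. These p-values therefore measure no spread between animals or replicate arrays. The estimate of prior degrees of freedom was infinite, and the test thus used nothing but a trend of spread with brightness. Without that trend 31 genes (0.302%) were higher and 56 (0.546%) lower. Of the 177 genes higher at rest 86 were called higher in stimulated cells, 48.6% of the resting and 34.0% of the stimulated genes, and 2 were called lower. Of the 155 lower at rest 72 were called lower, 46.5% and 26.4%, and 2 higher. Without the trend the shared genes numbered 26 (14.7% and 83.9%) and 48 (31.0% and 85.7%). At least 2-fold at 4 h were 232 genes higher (2.26%) and 247 lower (2.41%), and at 8 h 214 (2.09%) and 228 (2.22%). Of the resting genes 44 higher and 67 lower ones reached 2-fold the same way at both times. Over 10251 genes, which are not independent replicates, the resting difference and the mean stimulated difference had a Pearson correlation of 0.57. The differences at 4 h and 8 h, which share no array either, had one of 0.41. The first value uses a mean over both times and the second uses single differences, so they are not like measures.

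The B cell and class II lists held the most genes that passed without the trend. Of 22 kept B cell genes 18 were called lower and 1, Ighm (0.52 ± 0.15, SE, 4 arrays), higher in stimulated cells (limma), and 10 stayed lower without the trend. Of 8 class II genes 6 were lower, and 5 without the trend. Each SE given here comes from the fit with the trend, while the adjusted p beside it comes from the fit without the trend. Ms4a1 differed by -3.32 ± 0.16 (limma without the trend, adjusted p = 0.0164) and H2-Aa by -2.39 ± 0.14 (adjusted p = 0.0193). Igha (3.07 ± 0.16, adjusted p = 0.0252) and Jchain (1.59 ± 0.13, adjusted p = 0.0401) were the 2 of 4 higher plasma cell genes that passed without the trend, and the 1 lower one, Mzb1, passed too. Of the granulocyte genes 7 of 15 were higher, and without the trend 2, Mcpt8 and Ms4a2. Of the monocyte and macrophage genes 8 of 21 were higher and 1 lower, and without the trend 1 higher, Ifitm3. List medians of the myeloid groups were smaller at 8 h than at rest: 1.63, 1.35 and 0.75 for granulocyte genes and 0.80, 0.84 and 0.54 for macrophage genes at 0, 4 h and 8 h. With dim genes at their bounds the resting macrophage median was 0.57, close to that at 8 h.

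The T cell groups were tested in the same fit. Among all kept genes it called 2.47% higher and 2.66% lower, and 0.302% and 0.546% without the trend. With the trend, a count of 1 in a list of 31 or more genes lies near that share. In stimulated cells 16 of 35 memory-like genes were called higher and 1 lower, but 1 higher, Tbx21, without the trend (limma). Cytotoxic genes counted 5 of 12 higher and 0 lower. Gzmk (2.32 ± 0.16, SE from the fit with the trend) passed without the trend (limma, adjusted p = 0.0193). Cytokines counted 7 higher and 1 lower of 11, and 0 without the trend. Immediate early genes counted 12 higher and 1 lower of 34, and 1 higher, Rgs1, without the trend. Interferon response genes, level at rest, counted 14 of 34 higher with and 0 without it, and their medians were 0.13, 0.62 and 0.17 untreated, at 4 h and at 8 h. Medians of immediate early genes were 0.20, 0.31 and 0.45 in the same order, and of memory-like genes 0.55, 0.47 and 0.42. Naive-state genes counted 1 higher and 3 lower of 26, T cell receptor signalling genes 1 higher of 32, and Rnf41 neighbours 5 higher and 1 lower of 35, each 0 without the trend. Further counts with the trend, higher then lower, were 4 and 1 of 14 surface activation, 4 and 0 of 19 cytokine receptor, 3 and 0 of 24 stress, 2 and 0 of 12 apoptosis, 1 and 0 of 31 proliferation, 0 and 3 of 42 ribosomal, 0 and 1 of 17 class I, and 0 and 0 of 14 glycolysis genes. Of these Asns (1.49 ± 0.15, SE from the fit with the trend) alone passed without the trend (limma, adjusted p = 0.0401).

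**Figure D5:**
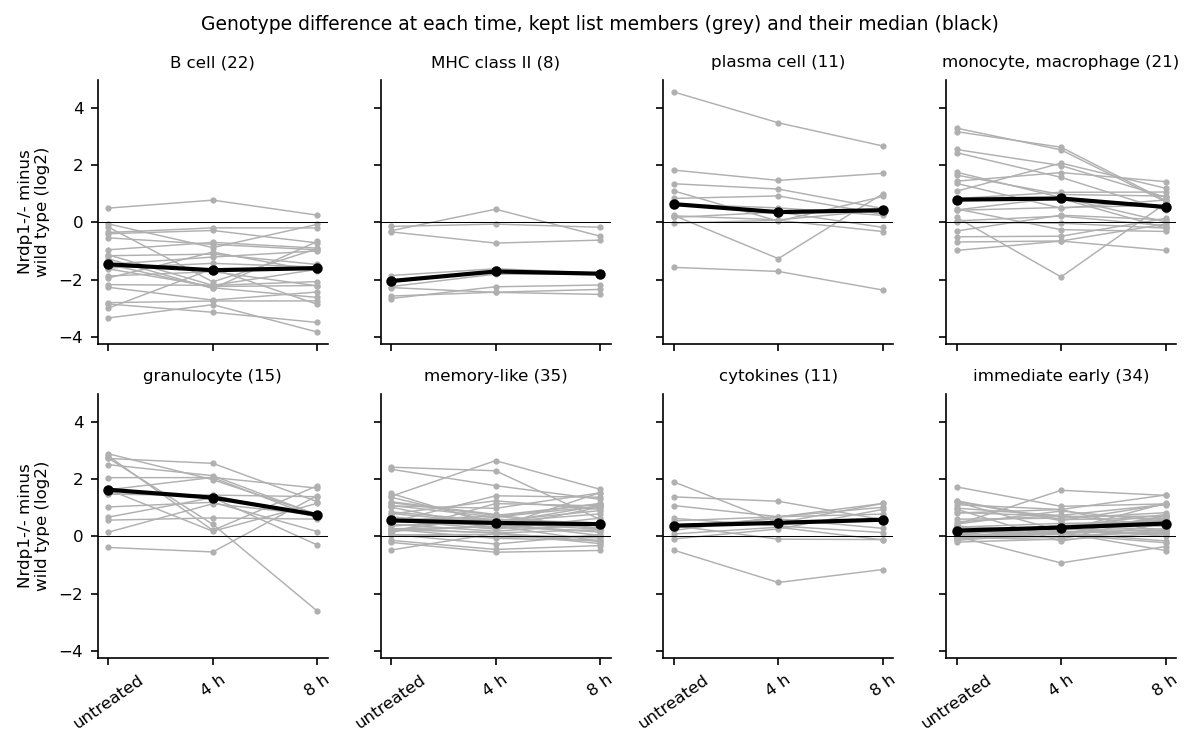
Genotype difference (log2) of each kept member (grey) and the list median (black) of 8 gene lists on untreated, 4 h and 8 h arrays, 1 array per genotype and time, with the number of members in each title. B cell and class II medians stay between -2.05 and -1.46, and the granulocyte median goes from 1.63 to 0.75.

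Whether the resting difference was another one than in stimulated cells was tested by a genotype-by-stimulation term over all 6 arrays. It called 11 genes with a resting difference above the stimulated one (0.107%) and 7 below it (0.0683%) at an adjusted p of 0.05 (limma), again with infinite prior degrees of freedom. Without the trend 0 genes were called, with 365 at an unadjusted p under 0.05, so these calls rest on the trend. Above the stimulated difference stood the lysozyme genes, with Lyz2 at 3.29 untreated, 2.53 at 4 h and 0.72 at 8 h, Igha at 4.56 untreated, 3.48 at 4 h and 2.67 at 8 h, and Nme1 at 1.41 untreated, 0.14 at 4 h and -0.89 at 8 h. Mpeg1, a pore-forming protein of macrophages, changed sign, at 1.31 untreated, -0.14 at 4 h and -1.17 at 8 h. The probe sets of Nme1 disagreed: the other bright one was higher in Nrdp1-/- cells at all 3 times, with 3413 and 4569 at 8 h. Below it stood Gbp2b, whose wild-type signals were all below the array median, the interferon-regulated factor Irf8 (-0.24 untreated, 0.99 at 4 h and 1.06 at 8 h), the semaphorin Sema7a (at least 1.93-fold lower untreated, 0.30 at 4 h and 0.92 at 8 h, and -0.28 untreated with the mean of its probe sets) and the granule gene Nkg7 (0.11 untreated, 1.14 at 4 h and 1.06 at 8 h), so that Irf8 and Nkg7 were close to level at rest and about a doubling apart after stimulation. Of the kept list genes 0 of the B cell, class II, granulocyte, cytotoxic and immediate early lists were called here, which does not show that their differences were equal.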

How the data were processed

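RNA of CD8+ T cells on 6 Affymetrix mouse 430 2.0 arrays was compared. The deposited values are intensities on a linear scale, made with MAS5 per the submitters' processing notes, whose version is not given in the sources used here. The mean of each array without its lowest and highest 2% was 500.0, so the authors had scaled each array by 1 factor, which hides a shift of most transcripts. Detection calls were not used here. Groups were taken from the sample titles.

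Of 45101 probe sets 64 controls were left out, 34945 carried 1 symbol in the platform annotation and 932 more than 1, while 9160 had no entry there and stay unnamed. By Entrez identifier 34741 matched RefSeq annotation of GRCm38.p6, and 0 symbols changed. A gene was read from its brightest probe set over the 6 arrays. Values were log2(signal + 4.45), the 10th percentile of all signals. Genes were kept when their mean log2 value on the untreated arrays reached that of the median probe set (61.9) and called bright at the 75th percentile (483).

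The resting difference was described by counts past 2-fold. For the stimulated arrays, limma 3.58.1 (R 4.3.3) fitted genotype with time as covariate (eBayes with its trend option, p-values adjusted over all kept genes by Benjamini-Hochberg), and the resting against the stimulated difference with a genotype-by-stimulation term. The tests were run on simulated data whose spread followed the trend with brightness alone. They therefore could not show how far the calls rest on that trend. The 28 gene lists and the members were chosen with earlier results of these data known. Named were 12 fixed genes (Rnf41, Zap70, Ubash3a, Ubash3b, Cd8a, Cd8b1, Ifng, Gzmb, Gzmk, Ms4a1, Ighm and Lyz2), the 15 higher and 15 lower bright genes with the largest resting difference, up to 5 members per list with the largest difference, up to 6 genes per direction from the resting against stimulated test, and neighbours of Rnf41 past 2-fold. Alternatives were quantile normalization, median centring, pseudocounts of 1 and 24.3, averaging all probe sets of a gene, no filter or one at the 70th percentile, folds of 1.5 and 4, no intensity trend and an additive fit over all 6 arrays. Filters on both untreated arrays and on bright genes were added after the data were seen.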

Additional observations from a re-analysis of the deposited data

Results flagged for a closer look

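The values here are the resting genotype difference minus the mean stimulated one (log2), for the 18 genes whose 2 differences were told apart by the genotype-by-stimulation term (limma with the intensity trend, adjusted p under 0.05). Among myeloid genes Lyz1 gave 1.47, Lyz2 1.67 and Mpeg1 1.96. Among immunoglobulin genes Igha gave 1.48 and Igkv8-30 1.00. The chemokine gene Ccl3 gave 1.09, Nme1 1.78 (from a probe set that its other bright one goes against at 8 h) and Fabp5 1.20, all 3 of them higher on both stimulated wild-type arrays than on the untreated one. Rpl39 gave 4.20 from a dim probe set, and 2610316D01Rik 2.06 and Tubgcp5 1.14. Below the stimulated difference were Gbp2b at -4.66, Sema7a at -2.16, Irf8 at -1.27, Slc25a40 at -1.09, Zfas1 at -1.07, Irak1 at -0.99 and Nkg7 at -0.99. Gbp2b on all wild-type arrays, Sema7a and Ccl3 on 1 untreated array each and Rpl39 on 2 arrays were below the array median, so the size of their values is set in part by background and is not exact. Slc25a40 and Zfas1 differed at rest (-1.01 and -1.09) and less after stimulation (0.22 and -0.06, and 0.02 and -0.07, at 4 h and 8 h). For each of the 18 genes at least 1 alternative gave an adjusted p between 0.848 and 1, and without the trend 0 were called.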

How the results depend on the processing

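No paired analysis was possible because each genotype and condition had 1 array, so no groups share 2 replicate numbers. The resting count of 177 higher and 155 lower genes depended on the filter and the fold: 1596 and 1744 without a filter, 45 and 40 at the 70th percentile, 111 and 88 with both arrays at or above their median, 27 and 27 among bright genes, 504 and 492 at 1.5-fold, and 37 and 26 at 4-fold. On the 4 h arrays 247 genes were lower. In the stimulated arrays 253 higher and 273 lower genes became 165 and 147 with median centring, 69 and 68 with the mean of probe sets, 31 and 56 without the trend, and 154 higher at the 70th percentile. At 4 h alone 232 genes were at least 2-fold higher. The resting against stimulated counts of 11 and 7 became 2 and 1 with quantile normalization, 6 and 2 with centring, 0 and 0 with the mean of probe sets or without the trend, and 4 below at the 70th percentile. Nr4a3 reversed to -0.64 with the mean of probe sets. The causes of these shifts were not tested, apart from the fewer or more genes that a filter leaves. Counting each named gene once under each alternative, 754 of the remaining resting differences stayed within the probe-set scatter and 60 moved beyond it. Counting list medians in the same way, 188 stayed and 8 moved. No scaling moved the median of all kept genes by over 0.1. Leaving out an array leaves no residual degree of freedom in the fit of the 4 stimulated arrays or in that with the genotype-by-stimulation term, and the additive fit over all 6 arrays was not repeated without one.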

Other observations

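Further bright genes outside the lists differed at least 2-fold at rest and were picked here after their values were seen. Agpat4, an acyltransferase of phospholipid synthesis, was higher by 1.32 untreated, 1.49 at 4 h and 1.76 at 8 h, and Ttc39b by 1.26 untreated, 1.49 at 4 h and 1.06 at 8 h. Lower were the interferon-induced Epsti1 (-1.52 untreated, -1.53 at 4 h and -1.995 at 8 h), the methionine salvage gene Adi1 (-1.32 untreated, -1.69 at 4 h and -1.63 at 8 h), the neutral amino acid transporter Slc6a19 (-1.39 untreated, -1.45 at 4 h and -1.30 at 8 h), the antiviral cytidine deaminase Apobec3 (-1.08 untreated, -0.70 at 4 h and -1.07 at 8 h) and Cpm, carboxypeptidase M (-1.39 untreated, -1.22 at 4 h and -1.24 at 8 h). The collagen receptor Ddr1 was lower by more at rest than later (-1.47 untreated, -0.62 at 4 h and -0.51 at 8 h), and the adaptor Tank was higher at rest and level at 4 h (1.05 untreated, 0.03 at 4 h and 0.69 at 8 h). The sialyltransferase St6galnac1, below the bright class, gave 84.4, 58.6 and 70.7 on the wild-type arrays (untreated, 4 h, 8 h) and 643, 789 and 598 on the Nrdp1-/- arrays, so that its Nrdp1-/- values were all above its wild-type values. Xist, which is transcribed from the inactive X chromosome, was bright on both untreated arrays, at 19406 and 22915.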
